A study of Mus musculus with 35 samples.

Results

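The 45 genes described here encode the DNA replication machinery and proteins that work with it in S phase. They were taken by name from a list of replication, nucleotide supply and S-phase genes, and all 45 were found among the 27012 genes of a normalized count table of mouse heart RNA. Poly(A)-selected RNA from the apex of the heart was sequenced 3 days after transverse aortic constriction (TAC), which narrows the aorta and makes the ventricle pump against a higher pressure, or after sham surgery. The animals were of the strain C57Bl/6/FVB and were operated on at 6 weeks of age. IRS1KO mice carried floxed Irs1 with alphaMHC-Cre, a Cre driven by a cardiomyocyte promoter, and gave 6 TAC and 6 sham libraries. IRS2KO mice carried floxed Irs2 with the same Cre and gave 6 TAC and 6 sham libraries. WT mice carried floxed Irs2 without Cre and gave 5 TAC and 6 sham libraries. Irs1 and Irs2 pass on signals of the insulin and IGF-1 receptors, and in both knockouts the deletion is directed to cardiomyocytes, so that the other cells of the heart keep the gene. Mice with Cre alone, or with floxed Irs1 and no Cre, were not analysed here, so that in a contrast with WT the presence of Cre and the loss of the gene cannot be told apart. IRS1KO mice also differed from WT and IRS2KO mice in the floxed line. In contrasts with IRS1KO, the line and the loss of the gene cannot be told apart either.

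The 35 libraries held between 11707111 and 14609467 reads assigned to genes. Irs1 ranged from 0 to 80.3 normalized counts over the IRS1KO libraries, against 135 to 343 over the IRS2KO and WT libraries. Irs2 ranged from 78.6 to 196 normalized counts over the IRS2KO libraries, against 93.0 to 959 over the IRS1KO and WT libraries, so that its ranges overlapped. The 9 cardiomyocyte markers, Myh6 and Tnnt2 among them, were detected in every library. The labels do not say that the libraries of a group came from separate mice, so the p-values measure only the spread between these libraries. Each level below is a count normalized between libraries by the depositors, with n = 6 libraries a group and n = 5 for WT TAC.

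DNA replication starts at origins, where the origin recognition complex, Cdc6 and Cdt1 load the MCM2-7 helicase in G1. In S phase the helicase is switched on by Cdc45 and the GINS complex, primase and polymerase alpha start each new strand, and polymerases epsilon and delta extend it with the sliding clamp PCNA. Transcription of many of these genes is driven by E2F factors when a cell enters S phase. In the heart after birth, cardiomyocytes mostly leave the cell cycle, and fibroblasts, macrophages and other cells of the tissue can still divide.

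E2F factors are known to bind short GC-rich words in promoters, so the windows from 250 bases before to 50 bases after each start site were searched for TTTCCCGC, TTTGGCGC, TTTCGCGC and TTTGCCGC on both strands, with overlapping matches counted. Windows were found for 37 of the 45 genes. At least 1 word was present in 18 of these 37 genes (48.6%), against 704 of all 27025 genes with a window (2.6%). With the leading T of each word left out, the shares were 70.3% of the 37 genes and 10.9% of all genes. The windows of the 37 genes had a median GC content of 58%, against 52.8% over all genes, and the part of base composition in the shares was not tested. By role, 7 of 8 licensing genes and 0 of 4 nucleotide supply genes held a word, and 7 and 2 did with the leading T left out. In lists of other genes the full words were present in 8 of 32 of the remaining replication machinery (25%), 7 of 20 G1/S regulators (35%) and 1 of 17 mitotic genes (5.88%). Over the 3 TAC contrasts, the median log2 fold change was 1.65 for the 17 tested genes with a full word and 1.44 for the 18 without, a difference not tested. The 250 bases before the start site are shown for 4 genes with a full word and, for comparison, for Brca1, which rose strongly. The window of Brca1 held no full word, but held a word with the leading T left out. Sequences are from RefSeq (GRCm38.p6, 5′ to 3′ along the gene's strand, with the full words in capitals). Mcm5 (chr8:75109259-75109508, plus strand) and Mcm6 (chr1:128359706-128359955, minus strand) each held a pair of overlapping words on opposite strands, and Mcm6 a further word nearer the start. Cdc6 (chr11:98907901-98908150, plus strand) and Pola1 (chrX:93632156-93632405, minus strand) each held 1 word, and Brca1 lies at chr11:101551956-101552205 on the minus strand.
Mcm5: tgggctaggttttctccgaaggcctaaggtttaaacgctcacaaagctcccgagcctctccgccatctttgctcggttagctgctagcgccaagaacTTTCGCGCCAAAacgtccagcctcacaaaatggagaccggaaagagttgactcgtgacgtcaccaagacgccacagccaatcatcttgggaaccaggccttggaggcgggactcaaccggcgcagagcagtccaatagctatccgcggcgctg
Mcm6: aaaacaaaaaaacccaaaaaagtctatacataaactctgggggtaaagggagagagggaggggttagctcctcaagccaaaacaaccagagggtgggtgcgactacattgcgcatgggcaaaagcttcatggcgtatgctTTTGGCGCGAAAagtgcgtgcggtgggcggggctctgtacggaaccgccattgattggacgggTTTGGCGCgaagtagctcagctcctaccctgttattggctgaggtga
Cdc6: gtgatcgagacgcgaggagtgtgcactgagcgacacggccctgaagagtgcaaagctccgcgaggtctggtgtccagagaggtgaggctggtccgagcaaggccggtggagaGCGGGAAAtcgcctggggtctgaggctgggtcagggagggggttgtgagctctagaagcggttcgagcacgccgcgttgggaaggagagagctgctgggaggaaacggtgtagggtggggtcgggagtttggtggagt
Pola1: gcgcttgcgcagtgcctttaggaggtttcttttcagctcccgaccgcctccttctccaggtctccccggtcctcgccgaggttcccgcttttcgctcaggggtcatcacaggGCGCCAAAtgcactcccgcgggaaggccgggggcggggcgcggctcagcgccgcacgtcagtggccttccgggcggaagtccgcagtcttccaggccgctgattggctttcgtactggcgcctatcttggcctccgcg
Brca1: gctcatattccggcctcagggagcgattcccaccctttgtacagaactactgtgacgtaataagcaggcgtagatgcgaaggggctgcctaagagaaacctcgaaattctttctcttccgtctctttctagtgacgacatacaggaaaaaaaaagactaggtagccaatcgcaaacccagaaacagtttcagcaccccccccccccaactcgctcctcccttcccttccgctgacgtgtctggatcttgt

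After TAC, most of the replication and S-phase genes rose in each genotype. A gene is called here when its limma adjusted p, corrected over all 13695 genes with a mean of at least 10 normalized counts, is under 0.05. Of the 45 genes, 43 passed that filter, and Orc1 and Fen1 did not. In IRS1KO hearts 39 of the 43 genes were called higher, where 32.4% of all genes tested were. In IRS2KO hearts 38 of the 43 were called higher, against 31.3% of all genes. In WT hearts 31 of the 43 were called higher, against 28.3% of all genes. No member was called lower, while 31.7% (IRS1KO), 31.1% (IRS2KO) and 26.6% (WT) of all genes were. The median log2 fold change of the 43 genes was 1.42 in IRS1KO, 1.47 in IRS2KO and 1.18 in WT, and the median over all genes was -0.01 in each. Cdc6, Mcm10, Gins2, Pole2, Chaf1b, E2f2, Clspn and Brca1 passed the filter with a mean under 10 over the sham libraries, so they were in the count through their TAC level. Tested without any filter, 40 of 45 genes in IRS1KO, 39 in IRS2KO and 32 in WT were called higher, against 18.7%, 18.1% and 15.8% of all 27012 genes in the same order of genotypes. No member was called lower without the filter, while 17% (IRS1KO), 16% (IRS2KO) and 12.8% (WT) of all genes were.

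**Figure D1:**
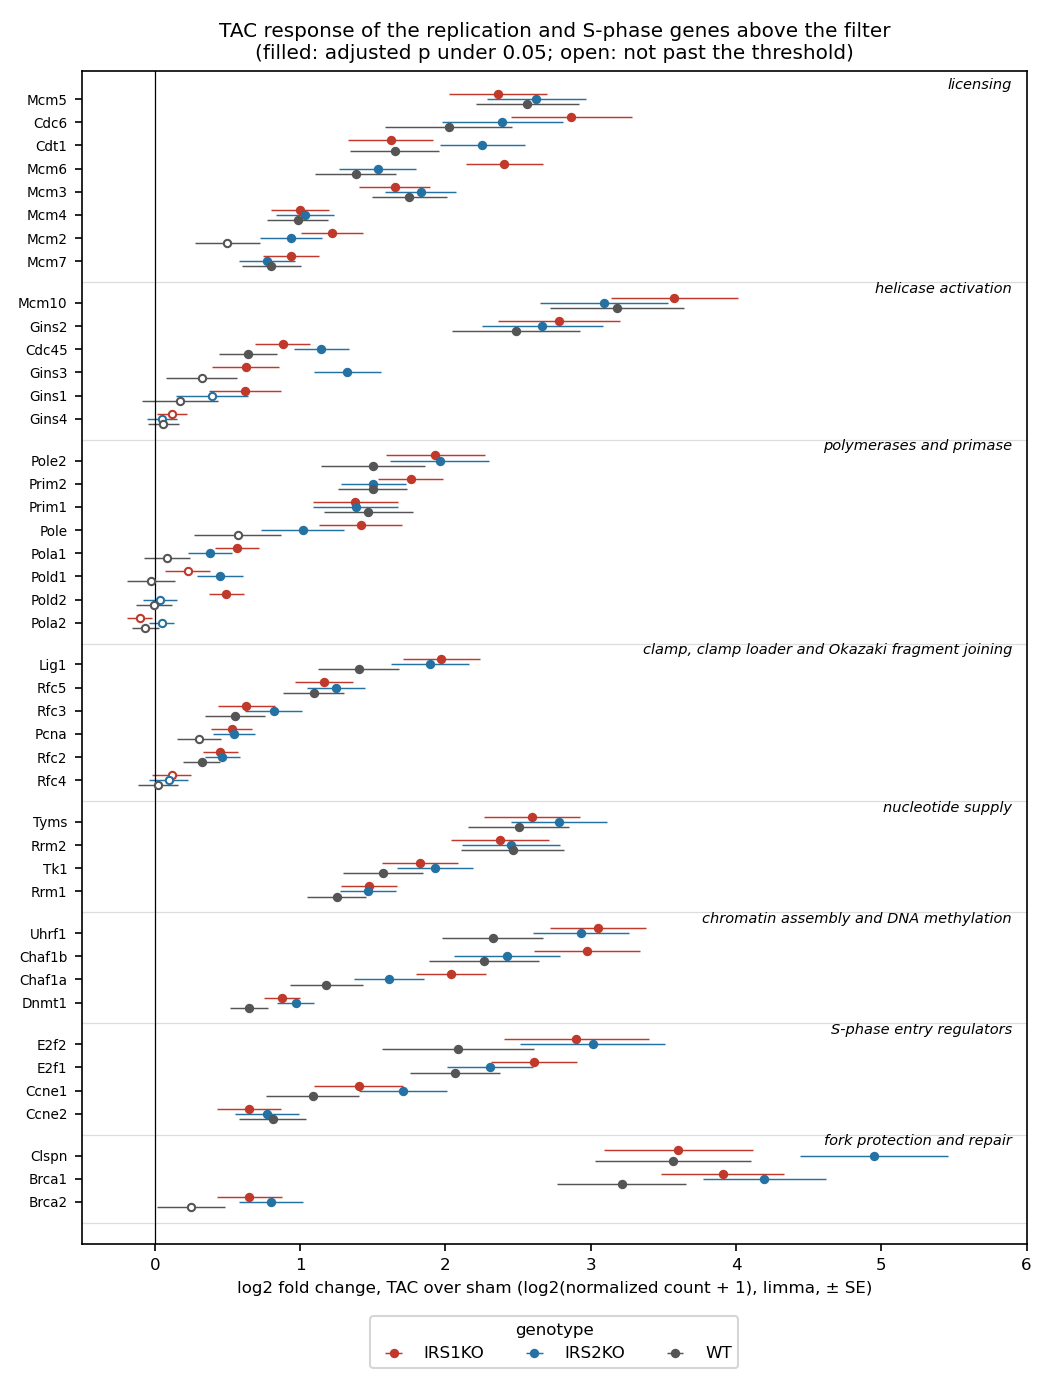
Log2 fold change of TAC over sham (x axis, log2 of normalized count plus 1, limma, with SE bars) for the 43 genes above the filter, grouped by role, with 1 point a genotype (filled where the adjusted p was under 0.05). Most points lie between 0 and 3, and Gins4, Pola2 and Rfc4 lie near 0 with open points in all 3 genotypes.

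Called in all 3 genotypes were 31 genes. Brca2, Gins3, Mcm2, Pcna, Pola1 and Pole were called in IRS1KO and IRS2KO and missed the threshold in WT. Gins1 and Pold2 were called in IRS1KO alone and Pold1 in IRS2KO alone, and Gins4, Pola2 and Rfc4 in none. A call in 1 genotype and not in another does not show that the responses differ, and the tests of that difference are given with the genotype contrasts. Every TAC library lay above every sham library for 32 of the 43 genes in IRS1KO (20.5% of all genes tested), for 24 in IRS2KO (15.7% of all genes) and for 14 in WT (17.2% of all genes). Giving all libraries the same total moved the median of all genes to 0.30 in IRS1KO, 0.33 in IRS2KO and 0.24 in WT. The share of higher among all called genes then became 76.8% (50.6% with the deposited scaling) in IRS1KO, 79.7% (50.2%) in IRS2KO and 79.7% (51.6%) in WT. In bulk tissue, more cells of a type and more RNA per cell cannot be told apart, which holds for every level given here.

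Licensing genes, whose products load the helicase onto origins, were called higher in 8 of 8 tested cases in IRS1KO, 8 of 8 in IRS2KO and 7 of 8 in WT, the exception being Mcm2. Their median log2 fold change was 1.64 in IRS1KO, 1.68 in IRS2KO and 1.52 in WT. Cdc6, the loading factor recruited by the origin recognition complex, had 21.4, 35.9 and 44.9 normalized counts (lowest, median and highest) in IRS1KO TAC libraries, against 1.04, 4.62 and 7.75 in IRS1KO sham libraries. In IRS2KO the same 3 values of Cdc6 were 11.4, 36.0 and 59.9 after TAC, against 3.19, 4.65 and 9.84 after sham. In WT TAC libraries 1, 2, 3, 5 and 6 Cdc6 had 32.3, 4.8, 41.5, 38.8 and 20.2, against 2.19 to 6.78 in WT sham libraries with a median of 4.90. Cdc6 was low in every sham library and higher in every TAC library except WT TAC replicate 2, which lay inside the sham range. The mean rose 8.11-fold in IRS1KO, 6.79-fold in IRS2KO and 5.52-fold in WT (log2 fold change 2.87 ± 0.42, 2.39 ± 0.42 and 2.02 ± 0.44 SE; limma adjusted p = 6.43e-07, 1.12e-05 and 0.000287). Cdt1, which brings the helicase to Cdc6, averaged 58.1 ± 23.2 normalized counts in IRS1KO TAC and 17.7 ± 5.21 in IRS1KO sham (SD), 58.4 ± 25.0 in IRS2KO TAC and 10.8 ± 3.66 in IRS2KO sham, and 50.9 ± 19.3 in WT TAC and 14.5 ± 2.23 in WT sham. Its TAC and sham libraries did not overlap in any genotype.

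Among the helicase subunits, Mcm5 had the highest ratio of TAC to sham means in each genotype, and the highest log2 fold change in IRS2KO and WT. It ranged from 126 to 252 normalized counts in IRS1KO TAC libraries (median 199), against 32.3 to 41.8 in IRS1KO sham libraries (median 37.0). IRS2KO TAC libraries had 83.5 to 287 (median 222), against 19.1 to 34.5 (median 29.2) in IRS2KO sham. In WT, TAC replicates 1, 2, 3, 5 and 6 had 220.0, 41.3, 226, 179.8 and 134, against 10.5 to 37.4 (median 21.0) in WT sham. No TAC library overlapped the sham range of its genotype, and WT TAC replicate 2 was only just above it. The ratio of means was 5.38 in IRS1KO, 7.04 in IRS2KO and 6.56 in WT (log2 fold change 2.36 ± 0.34, 2.63 ± 0.34 and 2.56 ± 0.35 SE; limma adjusted p = 5.44e-07, 1.33e-07 and 7.15e-07). Mcm6 rose 5.11-fold in IRS1KO, 3.13-fold in IRS2KO and 2.79-fold in WT, and Mcm3 3.25-fold, 3.78-fold and 3.64-fold in the same order. Mcm4 and Mcm7 rose less, between 1.76-fold and 2.19-fold over the 3 genotypes. Mcm2 averaged 145 ± 46.4 normalized counts in WT TAC and 99.1 ± 17.2 in WT sham (SD; limma adjusted p = 0.059), and was called in WT by edgeR (adjusted p = 0.0341), by DESeq2 (0.0297) and without WT TAC replicate 2 (limma 0.00728). Orc1, the largest subunit of the origin recognition complex, was under the filter. It averaged 14.4 ± 5.66 normalized counts in IRS1KO TAC and 3.61 ± 1.61 in IRS1KO sham, 11.2 ± 4.68 in IRS2KO TAC and 3.32 ± 1.47 in IRS2KO sham, and 9.09 ± 5.27 in WT TAC and 2.82 ± 2.40 in WT sham (SD). With no filter it was called higher in all 3 genotypes (limma adjusted p = 0.00117, 0.00572 and 0.0153).

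**Figure D2:**
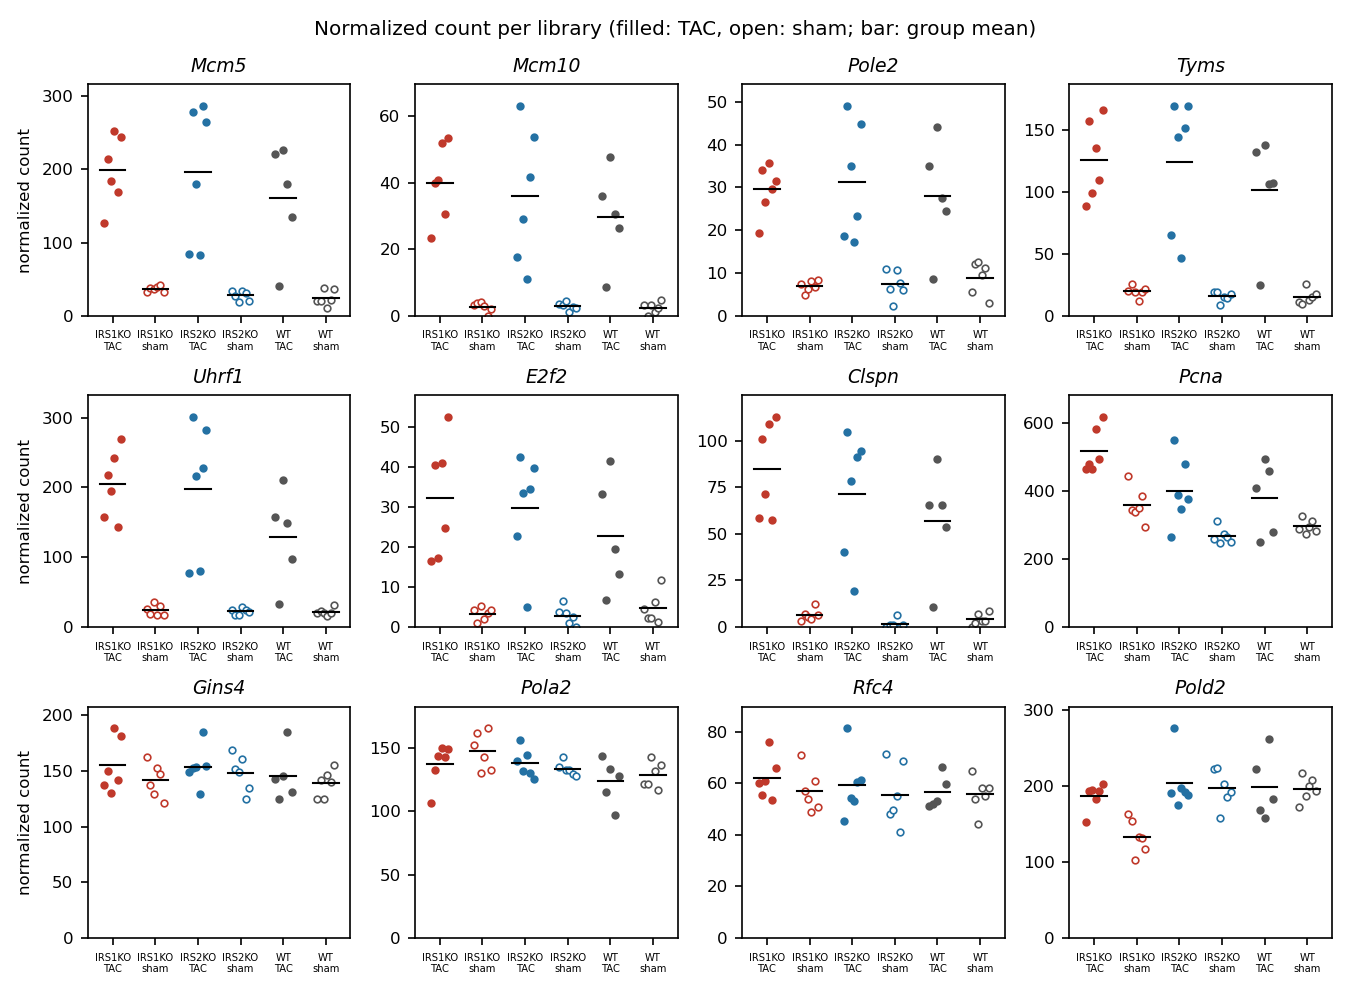
Normalized count (y axis, from 0) of 12 genes in each of the 35 libraries, by genotype and operation on the x axis (filled points TAC, open points sham, bar the group mean). TAC points lie above sham points for Mcm5 and Mcm10, while Gins4, Pola2 and Rfc4 have overlapping ranges in every genotype and Pold2 is low in IRS1KO sham libraries.

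Of the 6 helicase activation genes, 5 were called higher in IRS1KO, 4 in IRS2KO and 3 in WT. Mcm10, which is needed to unwind the loaded origin, had 23.3, 40.4 and 53.5 normalized counts (lowest, median, highest) in IRS1KO TAC libraries, against 0, 3.15 and 4.14 in IRS1KO sham. Its IRS2KO TAC libraries had 11.2, 35.5 and 63.3, against 1.1, 2.88 and 4.49 in IRS2KO sham. For WT, TAC libraries 1, 2, 3, 5 and 6 had 35.9, 8.64, 47.8, 30.6 and 26.3 of Mcm10, against 0, 2.76 and 4.85 in WT sham. All TAC libraries were above all sham libraries in each genotype (limma adjusted p = 4.22e-08 in IRS1KO, 6.13e-07 in IRS2KO and 1.42e-06 in WT), and no ratio is given because every sham mean was under 3. Gins2, a GINS subunit, rose 8.12-fold in IRS1KO, 7.32-fold in IRS2KO and 6.72-fold in WT. Cdc45, which joins the helicase at firing, rose 1.87-fold in IRS1KO, 2.27-fold in IRS2KO and 1.62-fold in WT, where the call was lost with quantile normalization (limma adjusted p = 0.106).

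The other GINS subunits moved less. Gins4 had 131, 146 and 189 normalized counts in IRS1KO TAC libraries, against 121, 142 and 163 in IRS1KO sham. In IRS2KO it had 129, 153 and 185 after TAC, against 124, 151 and 169 after sham. After TAC the WT libraries 1, 2, 3, 5 and 6 had 143, 125, 145, 185 and 131, against 125, 141 and 155 in WT sham. Its TAC and sham ranges overlapped in all 3 genotypes, with log2 fold changes of 0.12 ± 0.10, 0.05 ± 0.10 and 0.06 ± 0.11 SE in IRS1KO, IRS2KO and WT (limma adjusted p = 0.314, 0.673 and 0.661). Given the same total per library, Gins4 was called higher in IRS1KO (log2 fold change 0.43, limma adjusted p = 0.00501) and IRS2KO (0.39, 0.01), where the median of all genes stood at 0.30 and 0.33. With array weights on the deposited scaling, Gins4 was called higher in IRS1KO alone (log2 fold change 0.22, limma adjusted p = 0.0433). Gins1 averaged 26.4 ± 5.83 normalized counts in IRS1KO TAC and 17.0 ± 4.61 in IRS1KO sham (SD; limma adjusted p = 0.0293), and that call was lost with quantile normalization (0.196) and without IRS1KO TAC replicate 2, 4, 5 or 6 or sham replicate 1 or 6 (0.0501 to 0.0832). In IRS2KO it averaged 26.9 ± 12.1 after TAC and 18.6 ± 3.6 after sham (limma adjusted p = 0.168). It was called there without IRS2KO TAC replicate 1 (0.0171), with array weights (0.0449) and with the same total per library (0.02). Gins3 is described with the genotype contrasts.

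Of the 8 polymerase and primase genes, 6 were called higher in IRS1KO, 6 in IRS2KO and 3 in WT. Of all genes tested, 32.4%, 31.3% and 28.3% were called higher in the same order of genotypes, and 3 of 8 in WT lies near that share. Pole2, the small subunit of the leading-strand polymerase epsilon, had the largest change. IRS1KO TAC libraries had 19.4, 30.6 and 35.6 normalized counts of Pole2, against 4.84, 7.16 and 8.28 in IRS1KO sham. After TAC, IRS2KO libraries had 17.3, 29.2 and 49.1, against 2.25, 7.04 and 11.1 in IRS2KO sham. In WT, TAC replicates 1, 2, 3, 5 and 6 had 35.0, 8.64, 44.2, 27.6 and 24.6, against 2.91, 10.3 and 12.5 in WT sham. Only WT TAC replicate 2 fell within its genotype's sham range. The mean of Pole2 rose 4.24-fold in IRS1KO, 4.26-fold in IRS2KO and 3.13-fold in WT (log2 fold change 1.93 ± 0.34, 1.96 ± 0.34 and 1.5 ± 0.36 SE; limma adjusted p = 1.24e-05, 1.13e-05 and 0.000807). The primase subunits Prim1 and Prim2, which make the RNA primers, rose between 2.70-fold and 3.5-fold in each genotype.

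Polymerase alpha, which extends those primers, had smaller fold changes. Its accessory subunit Pola2 had 107, 143 and 150.2 normalized counts in IRS1KO TAC libraries, against 131, 147 and 166 in IRS1KO sham. In IRS2KO, Pola2 had 126, 136 and 157 after TAC, against 128, 133 and 143 after sham. For WT, TAC libraries 1, 2, 3, 5 and 6 had 144, 115, 133, 97.1 and 128, against 116, 127 and 143 in WT sham. Pola2 ranges overlapped in each genotype and the log2 fold changes were -0.10 ± 0.09, 0.05 ± 0.09 and -0.06 ± 0.09 SE in IRS1KO, IRS2KO and WT (limma adjusted p = 0.308, 0.66 and 0.571), although with the same total per library Pola2 was called higher in IRS2KO (0.38, adjusted p = 0.00316). The catalytic subunit Pola1 rose 1.47-fold in IRS1KO (limma adjusted p = 0.00154) and 1.31-fold in IRS2KO (0.0303), and the IRS2KO call was lost with quantile normalization (0.125) and without any 1 of 7 libraries (0.051 to 0.0892). In WT, Pola1 averaged 119 ± 28.7 normalized counts after TAC and 109.9 ± 14.6 after sham (SD; limma adjusted p = 0.675). Pole, the catalytic subunit of polymerase epsilon, rose 2.78-fold in IRS1KO and 2.28-fold in IRS2KO, and averaged 71.8 ± 33.1 in WT TAC and 45.6 ± 15.4 in WT sham (limma adjusted p = 0.105, and 0.0114 without WT TAC replicate 2). Pold1, the catalytic subunit of the lagging-strand polymerase delta, was called only in IRS2KO, at 148 ± 49.1 normalized counts in TAC and 104 ± 14.1 in sham (limma adjusted p = 0.0134), and that call was lost with quantile normalization (0.0507), with only those groups in the fit (0.0709) and without IRS2KO TAC replicate 2 (0.0622).

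The clamp, its loader and the ligase that joins Okazaki fragments were called higher in 5 of 6 tested cases in IRS1KO, 5 of 6 in IRS2KO and 4 of 6 in WT. Lig1, DNA ligase 1, had 109.8, 183 and 257 normalized counts in IRS1KO TAC libraries, against 38.7, 43.1 and 47.4 in IRS1KO sham. IRS2KO libraries had 84.5, 175 and 215 of Lig1 after TAC, against 27.7, 40.2 and 50 after sham. After TAC the WT libraries 1, 2, 3, 5 and 6 had 139, 41.3, 183, 160.4 and 123, against 29.6, 46.2 and 57.3 in WT sham. The ranges were apart in both knockouts and overlapped in WT through replicate 2. Lig1 rose 4.14-fold in IRS1KO, 3.93-fold in IRS2KO and 2.93-fold in WT (log2 fold change 1.97 ± 0.27, 1.89 ± 0.27 and 1.40 ± 0.28 SE; limma adjusted p = 2.28e-07, 5.69e-07 and 0.000121). The clamp loader subunits differed among themselves. Rfc5 rose 2.29-fold in IRS1KO, 2.54-fold in IRS2KO and 2.22-fold in WT, with no overlap of TAC and sham libraries in any genotype. Rfc3 and Rfc2 rose between 1.27-fold and 1.81-fold, and in WT both calls were lost on leaving out single libraries, among them WT TAC replicate 1 (limma adjusted p = 0.0966 for Rfc3 and 0.065 for Rfc2), 3 (0.0619 and 0.121) or 5 (0.0593 and 0.0531). The WT call of Rfc3 was also lost with quantile normalization (0.224). Rfc4 had 53.5, 60.6 and 75.9 normalized counts in IRS1KO TAC libraries, against 48.9, 55.5 and 71.1 in IRS1KO sham. In IRS2KO, TAC libraries had 45.5, 57.4 and 81.6 of Rfc4, against 41.0, 52.2 and 71.3 in IRS2KO sham. In WT, TAC replicates 1, 2, 3, 5 and 6 had 51.2, 51.8, 53.2, 66.4 and 59.7, against 44.2, 56.4 and 64.6 in WT sham. The Rfc4 ranges overlapped throughout (limma adjusted p = 0.452, 0.539 and 0.901 in IRS1KO, IRS2KO and WT), and Rfc4 was called higher in IRS1KO (0.018) and IRS2KO (0.016) once all libraries were given the same total. Rfc4 overlaps Eif4a2 on the opposite strand, at a mean of 57.7 against 3442 normalized counts over all libraries, and no source used here gives the strand setting of the counting. Fen1, the flap nuclease, was under the filter with at most 8.23 normalized counts in any library and overlaps Tmem258 on the opposite strand. Taken from gene start to gene end with introns included, 11 of the 45 genes overlapped a protein-coding gene, each on the opposite strand. If counting ignored strand, reads from the stretch shared by a pair cannot be told apart. Whether exons of the pairs overlap was not checked.

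All 4 nucleotide supply genes rose in every genotype. Tyms, which makes thymidylate, had 88.4, 123 and 167 normalized counts in IRS1KO TAC libraries, against 12.2, 20.1 and 26.2 in IRS1KO sham. IRS2KO TAC libraries had 46.8, 148 and 169.8 of Tyms, against 8.99, 16.6 and 19.7 in IRS2KO sham. For WT, TAC libraries 1, 2, 3, 5 and 6 had 132, 25.0, 138, 106 and 107, against 9.92, 14.2 and 26.1 in WT sham. Tyms was high in every TAC library but WT TAC replicate 2, which lay within the WT sham range. It rose 6.34-fold in IRS1KO, 7.86-fold in IRS2KO and 6.58-fold in WT (log2 fold change 2.60 ± 0.33, 2.78 ± 0.33 and 2.5 ± 0.35 SE; limma adjusted p = 7.67e-08, 3.5e-08 and 6.95e-07). Rrm2, the subunit of ribonucleotide reductase that is limiting in S phase, rose 5.52-fold in IRS1KO, 6.45-fold in IRS2KO and 6.22-fold in WT. The larger subunit Rrm1 rose 2.82-fold, 2.99-fold and 2.49-fold in the same order, and thymidine kinase Tk1 rose 3.61-fold, 4.12-fold and 3.30-fold.

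All 4 genes of chromatin assembly and DNA methylation also rose in every genotype. Uhrf1, which brings the methyltransferase Dnmt1 to newly made DNA, had 144, 207 and 269 normalized counts in IRS1KO TAC libraries, against 17.3, 22.1 and 36.3 in IRS1KO sham. After TAC, IRS2KO libraries had 77.5, 222 and 301 of Uhrf1, against 16.9, 23.0 and 28.0 in IRS2KO sham. After TAC the WT libraries 1, 2, 3, 5 and 6 had 157, 32.6, 210.0, 149 and 97.5, against 15.8, 19.9 and 31.0 in WT sham. No library of a TAC group overlapped its sham group. Uhrf1 rose 8.46-fold in IRS1KO, 8.95-fold in IRS2KO and 6.01-fold in WT (log2 fold change 3.05 ± 0.33, 2.93 ± 0.33 and 2.33 ± 0.35 SE; limma adjusted p = 5.08e-09, 1.57e-08 and 2.44e-06). Dnmt1 itself rose 1.84-fold in IRS1KO, 2.01-fold in IRS2KO and 1.61-fold in WT. Of the histone chaperone CAF-1, Chaf1a rose 4.23-fold, 3.31-fold and 2.42-fold and Chaf1b 8.96-fold, 6.87-fold and 5.77-fold in the same order of genotypes.

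The 4 regulators of S-phase entry were called higher in every genotype. E2f2, a transcription factor that activates S-phase genes, had 16.5, 32.7 and 52.6 normalized counts in IRS1KO TAC libraries, against 0.969, 3.76 and 5.18 in IRS1KO sham. In IRS2KO, TAC libraries had 5.09, 33.9 and 42.5 of E2f2, against 0, 2.97 and 6.38 in IRS2KO sham. In WT, TAC replicates 1, 2, 3, 5 and 6 had 33.2, 6.72, 41.5, 19.4 and 13.2, against 1.12, 3.32 and 11.6 in WT sham. The ranges were apart in IRS1KO and overlapped by 1 TAC library in each of IRS2KO and WT. Its log2 fold change was 2.90 ± 0.50 in IRS1KO, 3.01 ± 0.50 in IRS2KO and 2.09 ± 0.52 in WT (SE; limma adjusted p = 8.64e-06, 5.72e-06 and 0.00133). E2f1 rose 6.67-fold in IRS1KO, 5.71-fold in IRS2KO and 4.76-fold in WT. Of the cyclins that activate Cdk2, Ccne1 rose 2.80-fold, 3.79-fold and 2.26-fold and Ccne2 1.63-fold, 1.79-fold and 1.88-fold in the same order, and the IRS1KO call of Ccne2 was lost with quantile normalization (limma adjusted p = 0.0667).

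Among the 43 tested genes the largest log2 fold change was that of Brca1 in IRS1KO and that of Clspn in IRS2KO and WT, both of them fork protection genes. Brca1, which protects stalled forks and repairs breaks by recombination, had 58.5, 66.8 and 85.0 normalized counts in IRS1KO TAC libraries, against 2.15, 3.98 and 6.22 in IRS1KO sham. IRS2KO TAC libraries had 26.9, 71.2 and 83.3 of Brca1, against 0, 2.54 and 5.32 in IRS2KO sham. For WT, TAC libraries 1, 2, 3, 5 and 6 had 44.0, 7.68, 77.5, 55.2 and 46.5, against 1.1, 3.62 and 5.27 in WT sham. Brca1 was near 0 in sham hearts and its TAC libraries lay above the sham range in each genotype. The mean rose 18.1-fold in IRS1KO and 13.7-fold in WT (log2 fold change 3.91 ± 0.42 and 3.21 ± 0.44 SE; limma adjusted p = 4.44e-09 and 6.9e-07), and in IRS2KO the log2 fold change was 4.19 ± 0.42 (adjusted p = 1.57e-09) over a sham mean under 3. Clspn, the claspin adaptor of the fork checkpoint, had 57.5, 86.3 and 113 normalized counts in IRS1KO TAC libraries, against 3.23, 5.69 and 12.4 in IRS1KO sham. After TAC, IRS2KO libraries had 19.3, 84.8 and 105 of Clspn, against 0, 1.09 and 6.47 in IRS2KO sham. After TAC the WT libraries 1, 2, 3, 5 and 6 had 65.6, 10.6, 90.1, 65.4 and 53.6, against 0, 3.26 and 8.72 in WT sham. Clspn did not overlap between TAC and sham in any genotype and rose 13.5-fold in IRS1KO and 14.1-fold in WT (limma adjusted p = 4.61e-07 and 2.48e-06, and 2.55e-09 in IRS2KO). Brca2, which acts in repair by recombination, rose 1.61-fold in IRS1KO, a call lost with quantile normalization (limma adjusted p = 0.0579), and 1.8-fold in IRS2KO. It averaged 47.4 ± 18.9 normalized counts in WT TAC and 38.1 ± 8.38 in WT sham (SD; limma adjusted p = 0.37).

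The TAC libraries differed more among themselves than the sham libraries. Over the members with a group mean of at least 10, the median coefficient of variation was 23.4% in IRS1KO TAC, 36.7% in IRS2KO TAC and 37.5% in WT TAC, against 17.2% in IRS1KO sham, 19.4% in IRS2KO sham and 17.3% in WT sham. These medians cover unlike sets of genes, with 44 members in IRS1KO TAC and IRS2KO TAC, 43 in WT TAC and 35 in each sham group. Summed over the 45 genes, IRS1KO TAC libraries had 4759.8 to 7490.0 normalized counts, against 2594 to 2922 in IRS1KO sham. In IRS2KO, TAC libraries had 3574 to 8001, against 2413 to 2829 in IRS2KO sham, with replicates 1 (3691) and 4 (3574) below the other 4, which started at 6051. Replicates 1 and 4 also had fewer normalized counts of the mitotic genes (2366 and 1586, against 4649 to 5755 in the other 4), the fibroblast markers (70650 and 42786, against 101318 to 148981) and the macrophage and monocyte markers (11701 and 7578, against 16520 to 23199). Their cardiomyocyte markers summed to 845342 and 968660, against 438460 to 592349 in the other 4. WT TAC libraries had 4449.6 to 6552 apart from replicate 2, which had 2716 and lay inside the WT sham range of 2473 to 2858. WT TAC replicate 2 was the lowest of its group for 42 of the 45 genes, and 14 genes lay above their highest WT sham value in it, against 36 to 40 in the other WT TAC libraries. Neither count for replicate 2 was made over all genes, so no share stands beside them. The mitotic genes and markers of the same library give the setting. Its 20 mitotic genes summed to 888 normalized counts, against 3126 to 4749.6 in the other WT TAC libraries and 302 to 419 in WT sham. Its fibroblast markers summed to 51679, against 62868.5 to 114299 and 12573 to 14542 in the same sets of libraries, its macrophage and monocyte markers to 9314, against 14165 to 25316 and 3642 to 4528, and its cardiomyocyte markers to 960218, against 532944 to 699801 and 1009030 to 1137740 in WT sham. Without WT TAC replicate 2, 35 of the 43 genes were called higher in WT, now including Mcm2, Gins3, Pole and Pcna, and their median log2 fold change was 1.46.

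**Figure D3:**
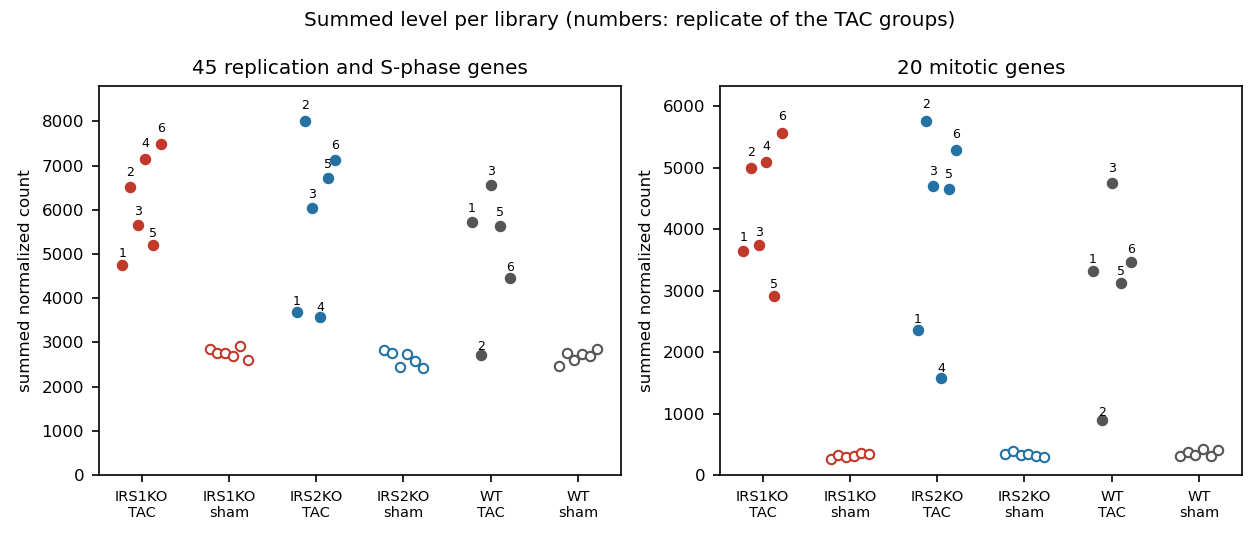
Summed normalized count (y axis, from 0) of the 45 replication and S-phase genes (left) and of 20 mitotic genes (right) in each library, by genotype and operation on the x axis, with the replicate number beside each TAC point. WT TAC replicate 2 lies among the WT sham libraries for the 45 genes (2716) and above them for the mitotic genes (888).

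Members of the same complex did not keep the same proportions. These ratios were chosen after the values were seen, compare levels per kilobase of exon and carry no test. The length counts all annotated exons of a gene, such as 11012 bases for Rrm1 and 2771 for Rrm2. Which gene of a set is highest or lowest, and the size of each ratio, therefore depend on the annotation. Across the MCM2-7 genes the ratio of the highest to the lowest subunit averaged 2.78 ± 0.39 in IRS1KO TAC and 3.90 ± 0.96 in IRS1KO sham, 2.46 ± 0.30 in IRS2KO TAC and 4.17 ± 0.76 in IRS2KO sham, and 2.89 ± 0.23 in WT TAC and 5.22 ± 2.49 in WT sham (SD). WT sham libraries ranged from 2.45 to 9.46, around the WT TAC range of 2.70 to 3.27. Counting noise in the lowest gene raises such a ratio, and Mcm5 fell to 10.5 normalized counts in WT sham. The part of that noise was not tested. In sham hearts Mcm5 had the lowest mean per kilobase of the 6 subunit genes in each genotype, and in TAC hearts Mcm2 did. The level of Rrm1 over Rrm2 averaged 0.890 ± 0.138 in IRS1KO TAC and 1.74 ± 0.46 in IRS1KO sham, 1.00 ± 0.31 in IRS2KO TAC and 2.07 ± 0.64 in IRS2KO sham, and 1.02 ± 0.26 in WT TAC and 2.46 ± 0.70 in WT sham. Primase over polymerase alpha (Prim1 with Prim2 over Pola1 with Pola2) had medians of 0.915 in IRS1KO TAC and 0.292 in IRS1KO sham, 0.795 in IRS2KO TAC and 0.273 in IRS2KO sham, and 0.763 in WT TAC and 0.269 in WT sham. In each genotype the Rrm1 to Rrm2 mean was lower, and the primase median higher, in TAC than in sham. Gins4 over Gins2 had medians of 11.1 in IRS1KO TAC and 77.4 in IRS1KO sham, 11.0 in IRS2KO TAC and 95.4 in IRS2KO sham, and 12.0 in WT TAC and 82.0 in WT sham, although both belong to the GINS complex. Its sham values ranged widely, from 71.1 to 127 in IRS1KO, 41.1 to 340 in IRS2KO and 47.5 to 346 in WT. The divisor Gins2 averaged only 5.03, 5.54 and 5.23 normalized counts in those sham groups. TAC values ranged from 9.68 to 14.8, 7.41 to 32.1 and 8.47 to 35.9 in the same order.

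**Figure D4:**
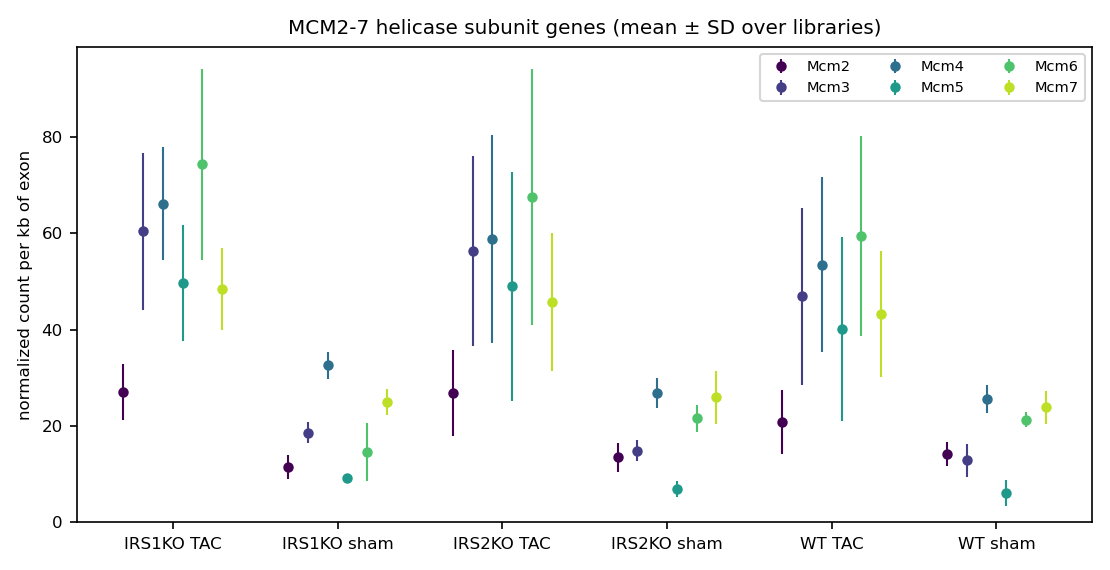
Mean normalized count per kilobase of exon (y axis, from 0; bars are the SD over libraries) of the 6 MCM2-7 genes in each group on the x axis. With lengths over all annotated exons, Mcm5 is the lowest in each sham group and Mcm2 the lowest in each TAC group.

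Between genotypes, few of the 43 genes differed, and the number called in each contrast and direction lay near the share of all genes. In sham hearts, IRS1KO against WT gave 1 member called lower (2.65% of all genes tested were) and 0 called higher (2% of all genes). That gene was Pold2, the second subunit of polymerase delta. Its IRS1KO sham libraries had 103, 132 and 163 normalized counts (lowest, median, highest), against 173, 197 and 217 in WT sham, with no overlap. IRS2KO sham libraries had 158, 198 and 223. The log2 difference was -0.57 ± 0.12 SE of IRS1KO against WT (limma adjusted p = 0.00206) and -0.57 ± 0.12 of IRS1KO against IRS2KO (0.00157), and both calls held under all 23 alternatives run for each. After TAC, Pold2 had 153, 193 and 203 in IRS1KO and 175, 192 and 277 in IRS2KO, and 223, 169, 159, 263 and 183 in WT TAC libraries 1, 2, 3, 5 and 6, so the 3 genotypes overlapped. Pold2 rose with TAC in IRS1KO, whose sham mean was the lowest of the 3 genotypes (1.40-fold, limma adjusted p = 0.000582). The response of Pold2 was larger in IRS1KO than in WT by 0.50 ± 0.17 log2 (SE), which did not pass the threshold (limma adjusted p = 0.37).

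Against IRS2KO sham, IRS1KO sham hearts also had 2 members called higher (3.67% of all genes tested were, and 4.64% lower). Gins3, a GINS subunit, had 17.2, 20.9 and 29.0 normalized counts in IRS1KO sham, against 9.84, 12.7 and 15.1 in IRS2KO sham, with no overlap (log2 difference 0.74 ± 0.23 SE, limma adjusted p = 0.0403). WT sham libraries had 12.7, 17.6 and 23.8 of Gins3 and overlapped both knockouts. After TAC, Gins3 had 22.3, 34.2 and 46.5 in IRS1KO, 20.7, 35.5 and 44.1 in IRS2KO, and 34.1, 9.60, 33.3, 19.4 and 27.2 in WT TAC libraries 1, 2, 3, 5 and 6. Its TAC call held in IRS2KO (2.67-fold, limma adjusted p = 1.28e-05) and in IRS1KO (1.59-fold, 0.0192), the IRS1KO call being lost with quantile normalization (0.14) and without IRS1KO TAC replicate 4 (0.0556). Clspn, given above, was higher in IRS1KO sham than in IRS2KO sham (log2 difference 1.74 ± 0.51 SE, limma adjusted p = 0.0278), at means of 6.32 and 1.64 normalized counts. The Gins3 call held in 10 of 22 alternatives (limma, edgeR or DESeq2 adjusted p = 0.00243 to 0.1) and the Clspn call in 14 of 22 (0.00614 to 0.195).

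After TAC, 1 member was called higher in IRS1KO than in WT (2.02% of all genes tested were higher and 2.68% lower). Pcna, the sliding clamp, had 467, 488 and 621 normalized counts in IRS1KO TAC, against 410.4, 251, 497, 459 and 280.1 in WT TAC libraries 1, 2, 3, 5 and 6. IRS1KO sham libraries had 296, 347 and 445 and WT sham libraries 273, 292 and 328. In all, 2 IRS1KO TAC libraries lay above every WT TAC library, and the ranges overlapped. The log2 difference was 0.49 ± 0.15 SE (limma adjusted p = 0.0489), and the call held in 11 of 22 alternatives (0.0109 to 0.222), not among them leaving out WT TAC replicate 2 (0.222). Pcna missed the threshold with TAC in WT (1.28-fold, limma adjusted p = 0.0809), but was called there by edgeR (0.0414) and DESeq2 (0.0416), with array weights (0.0147), with the same total per library (0.00858), and without WT TAC replicate 2 (0.0102) or 6 (0.0289). In IRS2KO, Pcna had 267, 383 and 551 after TAC, against 248, 262 and 313 after sham (1.5-fold, limma adjusted p = 0.00129). Pold1 came next in IRS1KO against WT after TAC, at 148 ± 20.7 normalized counts in IRS1KO and 102 ± 18.0 in WT (SD; limma adjusted p = 0.0511).

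The TAC means of 44 of the 45 genes were higher in IRS1KO than in WT, Pold2 being the exception, and those of all 45 were higher in IRS2KO than in WT. The median log2 difference over the 43 tested genes was 0.40 for IRS1KO against WT and 0.22 for IRS2KO against WT, both set against the same 5 WT TAC libraries. Without WT TAC replicate 2 these medians were 0.11 and -0.01, and 36 and 18 of the 43 genes were higher. Other single libraries also moved the IRS2KO median by over 1.5 times, which was 0.40 without IRS2KO TAC replicate 1, 0.12 without replicate 2, 0.44 without replicate 4 and 0.42 without WT TAC replicate 3. The array weights gave 0.35. No count of higher means and no median over all genes stands beside these values, so they do not set the replication genes apart from other genes. IRS2KO against WT gave 0 of 43 genes called after TAC and 0 in sham hearts with limma (0% of all genes in either direction), and edgeR and DESeq2 called 0. At an unadjusted p under 0.05, 3 of the 43 genes were higher after TAC, where 2.75% of all genes were, and 1 was lower in sham, where 1.67% of all genes were. IRS1KO against IRS2KO after TAC gave 0 (1.08% of all genes were higher and 1.28% lower), and edgeR and DESeq2 also called 0. Pcna was higher there at an unadjusted p under 0.05, as were 5.93% of all genes.

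The difference in TAC response itself was tested for each pair of genotypes and gave 0 of 43 genes in limma, edgeR and DESeq2. Of all genes tested, limma called 0.0365% higher and 0.073% lower for IRS1KO minus WT, 0% in either direction for IRS2KO minus WT, and 0.263% higher and 0.146% lower for IRS1KO minus IRS2KO. At an unadjusted p under 0.05, 6 of 43 members had a larger response and 0 a smaller one for IRS1KO minus WT (Mcm2, Mcm6, Pola1, Pole, Pold2 and Chaf1a), where 4.78% of all genes tested were larger and 4.1% smaller by the same unadjusted p. For IRS2KO minus WT, Gins3 and Pold1 were larger, against 2.34% of all genes larger and 2.86% smaller. For IRS1KO minus IRS2KO, Mcm6 and Pold2 were larger and Gins3 smaller, against 6.76% of all genes larger and 4.67% smaller. The largest of these differences was that of Mcm6 in IRS1KO minus WT, at 1.02 ± 0.38 log2 (SE; limma adjusted p = 0.425). Mcm6 averaged 347 ± 92.4 normalized counts in IRS1KO TAC and 67.9 ± 28.1 in IRS1KO sham, and 278 ± 96.9 in WT TAC and 99.4 ± 7.39 in WT sham (SD).

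Other genes of the same pathways were listed apart from the 45. Their counts stand beside the shares of all genes called higher and lower given above, which were 32.4% and 31.7% in IRS1KO, 31.3% and 31.1% in IRS2KO, and 28.3% and 26.6% in WT. Of 36 tested genes of the remaining replication machinery, 19 were called higher and 5 lower in IRS1KO, 21 and 4 in IRS2KO, and 17 and 4 in WT. Ticrr, needed for origin firing, averaged 28.6 normalized counts in IRS1KO TAC and 1.53 in IRS1KO sham (limma adjusted p = 3.57e-08). Dbf4, the activator of the Cdc7 kinase, averaged 102 in IRS1KO TAC and 19.8 in IRS1KO sham. Gmnn, geminin, which binds Cdt1 and blocks relicensing, went the other way at 255 in IRS1KO TAC and 381 in IRS1KO sham, 307 in IRS2KO TAC and 509.8 in IRS2KO sham, and 336 in WT TAC and 506 in WT sham (limma adjusted p = 0.00828, 0.000404 and 0.0106). Of 10 genes of nucleotide and histone supply, 4 were called higher and 4 lower in IRS1KO, 5 and 4 in IRS2KO, and 5 and 4 in WT. Counts of 4 or 5 in 10 lie near those shares. Asf1b, a histone chaperone, and Dck, deoxycytidine kinase, rose, while Rrm2b, the reductase subunit used outside S phase, averaged 344 in IRS1KO TAC and 517 in IRS1KO sham (limma adjusted p = 5.59e-06) and fell in all 3 genotypes. Of 25 tested G1/S regulators, 14, 15 and 12 were called higher and 5, 5 and 6 lower in IRS1KO, IRS2KO and WT. Myc and E2f7 rose, and Cdkn1c, the p57 Cdk inhibitor, averaged 37.2 in IRS1KO TAC and 143 in IRS1KO sham (limma adjusted p = 1.8e-07) and was called lower in all 3 genotypes, as was Cdkn1b, the p27 inhibitor. Cdkn2c and Cdkn2d, which inhibit the cyclin D kinases, were called higher in all 3 genotypes, at 1.5-fold, 1.77-fold and 1.66-fold for Cdkn2c and 1.40-fold, 1.45-fold and 1.37-fold for Cdkn2d in IRS1KO, IRS2KO and WT. Cdkn1a, the p21 inhibitor, rose 3.28-fold in IRS1KO (limma adjusted p = 3.23e-05) and 1.81-fold in WT (0.0373), and was not called in IRS2KO (log2 fold change 0.02, 0.952). Of 18 tested checkpoint and recombination genes, 12 were called higher in IRS1KO, 12 in IRS2KO and 11 in WT. All 20 mitotic genes in IRS1KO and IRS2KO and 19 in WT were called higher, with median log2 fold changes of 4.22, 4.17 and 4.17.

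Markers of the cell types of the heart moved with TAC in all 3 genotypes. The 10 fibroblast markers summed to 61548.5 to 147830 normalized counts in IRS1KO TAC and 12296.5 to 14954 in IRS1KO sham, 42786 to 148981 in IRS2KO TAC and 15130.5 to 16977.5 in IRS2KO sham, and 51679 to 114299 in WT TAC and 12573 to 14542 in WT sham. Of these, 7 (IRS1KO), 7 (IRS2KO) and 8 (WT) were called higher, among them the matrix genes Postn, Col1a1, Col1a2 and Col3a1. Dcn, decorin, was called lower in IRS1KO (log2 fold change -0.36, limma adjusted p = 0.0224) and IRS2KO (-0.53, 0.00148), and no fibroblast marker was called lower in WT. All 13 macrophage and monocyte markers were called higher in each genotype, and their sum was 9756 to 22772 in IRS1KO TAC and 3707 to 5178 in IRS1KO sham. The 9 cardiomyocyte markers summed to 423171 to 792902 in IRS1KO TAC and 981652 to 1115920 in IRS1KO sham, with 7, 8 and 8 of 9 called lower in IRS1KO, IRS2KO and WT, and Actc1 called higher in IRS2KO. The 9 endothelial markers were called lower in 8, 8 and 7 cases. T, NK and B cell markers were low, with sums of at most 52.6 normalized counts in any library. Cd3e was at 0 in 15 of the 35 libraries, while Cd4, of the same list, was detected in every library. Group means of Cd4 ran from 7.91 (IRS2KO sham) to 15.2 (WT TAC). It was called higher in WT (log2 fold change 0.90, limma adjusted p = 0.0159) and not in IRS1KO (0.983) or IRS2KO (0.0651). The part of these shifts in the rise of the replication genes was not tested.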

How the data were processed

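RNA from the heart apex was sequenced in 35 libraries of 6 groups. The values are a normalized count signal per gene, deposited by the authors in 1 table of 27012 genes. The submitters' processing notes name HISAT2 2.0.6, HTSeq 0.7.1, DESeq2 and the build GRCm38, with no role or order. Dividing each library by its smallest step gave whole reads for 100% of values within a tolerance of 0.001, and 11707111 to 14609467 reads a library, so depth limits mainly the genes with few reads. Symbols and positions came from GENCODE (GRCm38), which matched 26886 genes and left 126 without a symbol, and promoter windows came from RefSeq (GRCm38.p6).

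The members and all gene lists were chosen with earlier results of these data known. Genes with a mean of at least 10 over all libraries (13695) were tested on log2(value + 1) with limma 3.58.1 in R 4.3.3 (trend and robust options), in 1 model of the 6 groups with 12 contrasts. P-values were adjusted by Benjamini-Hochberg over all genes tested in a contrast, with a threshold of 0.05. Fold changes on this scale understate the change of low genes, and the ratio of means is given beside them where both means are at least 3. Because whole reads were recovered, edgeR 4.0.16 and DESeq2 1.42.0 were run on the reads as alternatives. Further alternatives changed the pseudocount (0.5 or 5), the filter (none, or a mean of 50), the scaling (equal library totals, or quantile normalization), the samples in the fit (those of the contrast alone), the weights (array weights) or the model (the replicate number as a block), or left out each library in turn. All members may be named. Values per library are given in each role for the called members with the largest log2 fold change in a TAC contrast, for members called in no TAC contrast, and for every member called between genotypes. Of the other lists, up to 4 called genes with the largest change are named, with any that moved against most of its list. Actc1, Cdkn1a, Cdkn2c, Cdkn2d, the subunit ratios and the 5 promoters were picked after values were seen. Values of single genes of the checkpoint and recombination list are not reported here.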

Additional observations from a re-analysis of the deposited data

Results flagged for a closer look

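Of 270 sets of 1 gene in 1 group, 12 held a library far from the others of its group (Dixon's criterion), and chance gives about 1 in 20 such sets. After TAC these were Pold2 in IRS2KO replicate 2 (277 normalized counts), Fen1 in IRS2KO replicate 6 (8.23) and Tyms in WT replicate 2 (25.0). In IRS1KO sham, replicate 1 stood apart for Pola1 (52.8) and Tk1 (24.8), both below the others. In IRS2KO sham, replicate 1 was high for Cdc6 (9.84) and Prim2 (33.2), replicate 3 was low for Mcm4 (74.1) and high for Tk1 (49.4), and replicate 4 was high for Rrm2 (41.0) and Clspn (6.47). In WT sham, replicate 6 was high for E2f1 (20.4).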

How the results depend on the processing

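The counts of members called higher after TAC kept within 1.5 times of their values under every alternative except a mean of at least 50, which leaves 23 members to test and gave 19 in IRS1KO, 19 in IRS2KO and 14 in WT. Leaving out 1 library gave 37 to 39 in IRS1KO, 36 to 39 in IRS2KO and 29 to 35 in WT, and no alternative called a member lower after TAC. Between genotypes the counts moved more. In IRS1KO against WT sham, members called higher were 4 with only the groups of the contrast and 3 with array weights, and 4 were called lower with array weights. In IRS1KO against IRS2KO sham, members called higher were 1 with a pseudocount of 5, with no filter, with edgeR and with DESeq2, 0 with a mean of at least 50 and with quantile normalization, and 5 with array weights, and 2 were called lower with array weights. Leaving out 1 library gave 0 to 2 higher there. In IRS1KO against WT after TAC, 0 were higher with no filter and with only the groups of the contrast, 2 with the same total per library, quantile normalization, array weights and DESeq2, and 0 to 3 with 1 library left out. IRS1KO against IRS2KO after TAC gave 0 to 1 with 1 library left out. The cause was not tested. Of the single genes followed, 2533 values kept their side of the threshold, 64 lost it, 20 gained it and 1 changed sign, Gins3 with TAC in WT (log2 fold change -0.0167 with quantile normalization, against 0.32). Uncalled members with a log2 fold change under 0.3 were not followed, a limit set after the values were seen, since 15 of 21 uncalled results took both signs over the settings.

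With the replicate block (the number in the labels), the count of members called in each contrast stayed as it was, 39 in IRS1KO, 38 in IRS2KO and 31 in WT after TAC, while in IRS1KO against WT after TAC Pcna missed the threshold (limma adjusted p = 0.0531) and another member passed. After removal of group means, the 85 pairs with the same number in other groups correlated between -0.60 and 0.57 (median 0.09, 38 of 85 over 0.1). Pairs with other numbers had a median of -0.02. Of the 35 libraries, 15 correlated best with a library of their own number. Whether libraries with the same number are paired or share a source of variation cannot be told from these values. Replicates were no closer than counting noise allows, with a chi-square per degree of freedom of at least 2.41 over 85 pairs. The values of members with few reads, such as Fen1 and Orc1, rest on few counts at this depth. For Fen1, which overlaps Tmem258 on the opposite strand, the cause of the low count was not tested.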
